A study of Mus musculus with 10 samples.

Results

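Wnt ligands, their Frizzled and Lrp receptors, the R-spondins and the secreted Wnt inhibitors were followed in cells sorted for green fluorescent protein driven by the Hopx promoter, from intestines of mouse embryos at stage E18.5. The members were every row of the deposited gene table whose symbol belongs to the Wnt, Fzd, Sfrp, Dkk, Rspo, Lrp5 and Lrp6, Ror, Kremen or Tcf/Lef families, plus Lgr4, Lgr6, Wif1, Porcn, Wls, Nkd1 and Sp5. This gave 43 of 20579 genes. Ryk and Notum, which the same rule names, gave no row and were not analysed here, and neither was Rspo2. The study compared 5 p57KO with 5 p57WT libraries of Hopx-GFP cells. Cdkn1c, the gene removed in p57KO, encodes p57Kip2, an inhibitor of cyclin-dependent kinases. All embryos carried the Hopx reporter and had the strain label C57BL6/J / 129S4, and GFP-positive cells were sorted directly into Trizol after mechanical dissociation of crypts. The sources used here do not state the extent of the deletion, the cells that carry it or animal identifiers, so p-values measure the spread between these 10 libraries.

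Wnt proteins are lipid-modified signals. Porcn attaches the lipid and Wls carries the ligand to the cell surface, where it binds a Frizzled receptor together with Lrp5 or Lrp6 (beta-catenin signalling) or with Ror1 or Ror2 (signalling without beta-catenin). R-spondins act through Lgr receptors to keep Frizzleds on the membrane, and Sfrp and Wif1 proteins bind the ligands. Several Dkk proteins, Dkk2 among them but not the divergent Dkk3, bind Lrp5 and Lrp6 with Kremen as a partner. In the intestine these signals maintain crypt stem cells, and many of the ligands, R-spondins and inhibitors are made by the mesenchyme beneath the epithelium.

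Total counts ranged from 8037887 to 26809231 per library, and the members took 0.0404% to 0.195% of them. Cdkn1c lay between 0.153 and 2.06 CPM (counts for every 1e6 reads counted, scaled between libraries) in p57KO and between 151 and 458 CPM in p57WT. Hopx, whose promoter drove the sort, was at 151 ± 30.6 and 71.3 ± 6.73 CPM (SD, n = 5). Each label carries a number: 607 covers p57KO 1, p57KO 2 and p57WT 1, 608 covers p57KO 3 to 5, and 740 covers p57WT 2 to 5, so number and genotype nearly coincide. Ribosomal RNA repeat features took at least 9.47% of counts in p57KO 5 and p57WT 1, 3, 4 and 5, and at most 0.435% in the other 5 libraries. The label names intestinal stem cells, and the 16 epithelial markers listed mark epithelium in general, so they cannot check it. All 16 were present, summing to 8957 to 17317 CPM in p57KO and 3072 to 7461 CPM in p57WT, and 13 passed as higher in p57KO. Markers of other cells were also present. The 11 smooth muscle markers summed to 4773 to 32374 CPM in p57KO and 49369 to 98654 CPM in p57WT, and all 11 passed as lower. The 9 fibroblast markers measured summed to 166 to 1438 CPM in p57KO and 2748 to 9346 CPM in p57WT, and 8 passed as lower (Dcn, Pdgfra, Pdgfrb and Dpt were not analysed here). Neither pair of ranges overlapped, and in all 5 p57WT and in p57KO 3 to 5 the smooth muscle sum exceeded the epithelial sum. Of 6 subepithelial telocyte markers, 1 passed as higher and 2 as lower, and Foxl1 was not analysed here. The 8 leukocyte markers summed to 212 to 8653 CPM in p57KO and 20.1 to 156 CPM in p57WT, and all 8 passed as higher. The 5 erythroid markers summed to 90.9 to 1133 CPM in p57KO and 1.70 to 76.8 CPM in p57WT, and all 5 passed as higher. Of 8 enteric neuron and glia markers tested 1 was higher and 3 were lower, of 3 interstitial cell markers 2 were higher and 1 lower, and of 2 mesothelial and 2 endothelial markers 0 passed. The part of these cells in the members' levels was not tested.

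The promoters of the members were searched for the short sequence that Tcf/Lef factors recognise, because these factors carry the beta-catenin signal to DNA and Sp5 and Nkd1 are classical targets. RefSeq promoters of GRCm38.p6, each 250 bases before and 50 after a start site, were at hand for 30 of the 43 members. The forms searched on both strands were CTTTGAT and CTTTGTT, which share their first 5 bases, and matches on opposite strands may overlap at their ends. Of all 32851 promoters, 3.73% held the first form, 5.85% the second and 9.33% at least 1, as did 6 of the 38 promoters of members. The matches are shown with 11 bases on each side, in capitals, 5' to 3' on the gene's strand.
Sp5: ttcctagagatAACAAAGacactttgtca
Sp5: ggcaaggccccCTTTGATcaggaaaatcc
Wnt3: cctcaagtggaCTTTGTTccaactattgg
Wnt11: gacgtgggcggATCAAAGcgacggtccgc
Wnt5b: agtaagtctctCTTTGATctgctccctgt
Tcf7l2: aaaatatcaggCTTTGTTcttttgattga
Sp5 was the member with a match to each form, at -222 and -104 from the start (chromosome 2, 70474690 to 70474718 and 70474808 to 70474836). The match in Wnt3 lay after the start, at position 19 (chromosome 11, 103774182 to 103774210), and those in Tcf7l2 and Wnt5b belonged to start sites inside the gene. The promoter at hand for Nkd1 held no match, and its start site too lay inside the gene. Fzd7 was the only member with a match whose level passed the genotype test below, and its 250 upstream bases (chr1:59481897-59482146, plus strand) end at the RefSeq start and hold the match at -130.
Fzd7: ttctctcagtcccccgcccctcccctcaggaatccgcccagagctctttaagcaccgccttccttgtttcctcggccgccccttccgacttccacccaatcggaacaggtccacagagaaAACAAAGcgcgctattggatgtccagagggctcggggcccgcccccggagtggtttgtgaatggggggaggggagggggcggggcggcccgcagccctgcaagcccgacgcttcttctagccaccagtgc
A match is a run of letters and not a measured binding site.

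Between genotypes the members were tested together with all genes by edgeR's quasi-likelihood test with Benjamini-Hochberg adjustment, and a gene passed at an adjusted p below 0.05. Levels are CPM scaled by trimmed mean of M values, and changes are p57KO over p57WT on the log2 scale. The expression filter removed 7 members (Wnt2, Wnt5b, Wnt9b, Fzd9, Sfrp4, Kremen2 and Lef1) and left 36. Of the 36, 21 passed as lower in p57KO, 0 as higher and 15 did not pass. That is 58.3% lower, where 17.2% of the 16710 genes tested were lower and 19.3% higher. At an unadjusted p below 0.05, 2 members, Wnt3 and Wif1, were higher. The members' median was -1.69 against 0.08 over all genes. In 19 members every p57KO library lay below every p57WT library, as in 12.7% of all genes tested. Since the filter keeps a gene that is high in 1 genotype alone, these counts describe the members and are no test of the family. In bulk RNA, fewer cells of a type and less RNA of a gene per cell cannot be told apart.

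**Figure D1:**
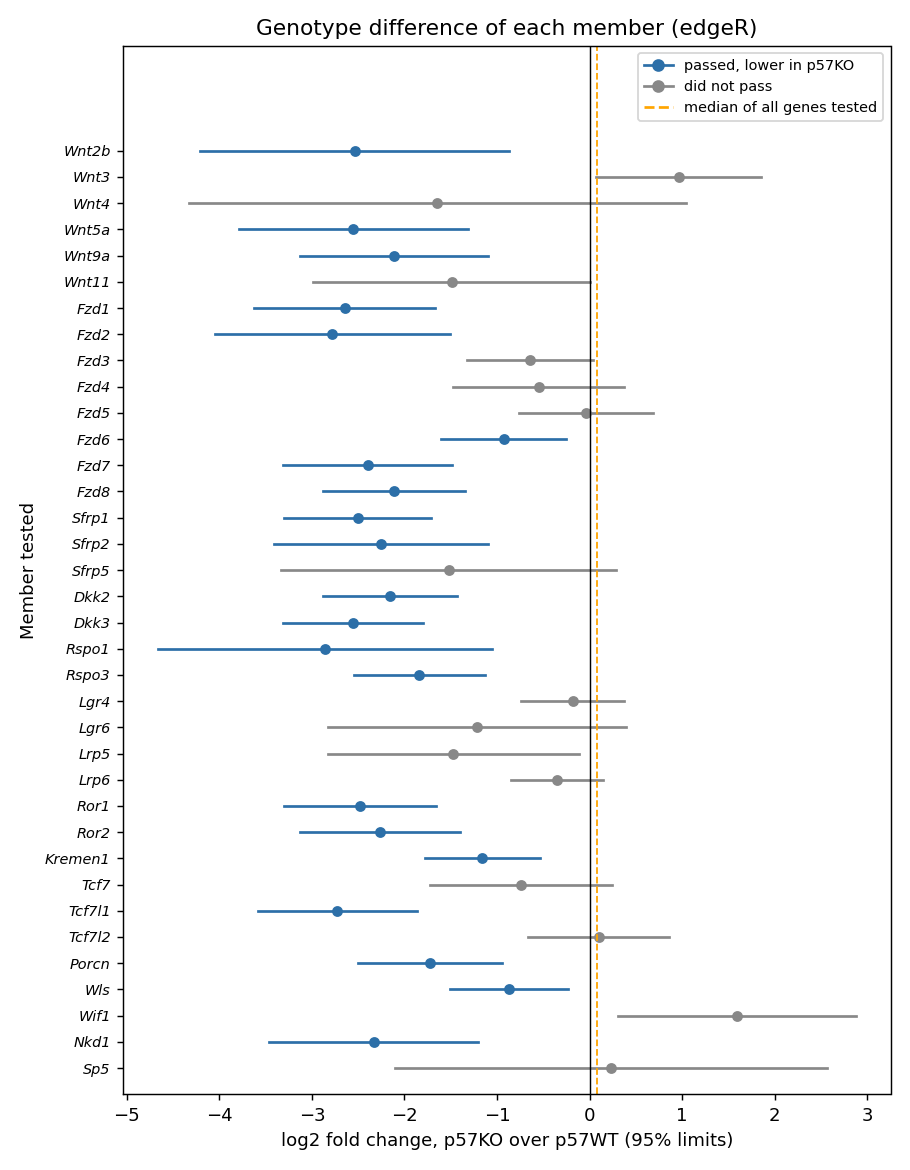
Log2 fold change of p57KO over p57WT (x axis) with 95% limits for the 36 members tested (y axis), in order of role. The 21 members in blue passed and lie below 0, unlike the median of all genes (dashed, 0.08). Scaled to fibroblast and smooth muscle markers, 13 of the 21 lie above 0. There the median of all genes is 3.07 and 85.7% of them passed as higher.

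The direction rested on what the libraries were scaled to. Taking 16 epithelial markers as the standard moved the median of all genes to -1.15 and that of the members to -3.02. There 33 members passed as lower, against 56.1% of all genes, and 0 as higher, against 3.16%. With 20 fibroblast and smooth muscle markers (here called mesenchymal) as the standard, all genes moved to 3.07 and the members to 0.99. In that fit 13 members passed as higher, against 85.7% of all genes, and 0 as lower, against 0.317%. Relative to all genes the members stood at -1.77 with the main scaling, -1.87 with epithelial and -2.08 with mesenchymal scaling. The members' median thus lay below that of all genes under these 3 scalings. Of the 21 members that passed, 13 were above 0 relative to the mesenchymal markers, and 3 of these passed as higher there: Fzd6, Kremen1 and Wls. Within label number 607, 14 members passed as lower, against 4.94% of all genes, and 0 as higher, against 1.1%. All 21 members kept values below 0 there. That contrast sets p57KO 1 and 2 against the single library p57WT 1. Alone in its group, p57WT 1 is fitted exactly, so the spread comes from the other libraries only. It is assumed to vary like them, and the calls have no replicate check of their own in p57WT. With a term for the class of libraries by ribosomal RNA share (under 1% or not), 17 members passed as lower, against 10.5%, and 0 as higher, against 7.22%. Those that lost their call with it were Wnt2b, Fzd6, Rspo1 and Wls. Each standard holds the mean change of its own markers near 0 by construction, and those markers differed by genotype under the main scaling. The epithelial median was 1.25, with 13 of 16 higher. The smooth muscle and fibroblast medians were -2.38 and -2.63, with all 11 and 8 of 9 lower. The median of all genes thus moved against the markers' own change. Which standard is nearer to RNA per cell was not tested.

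**Figure D2:**
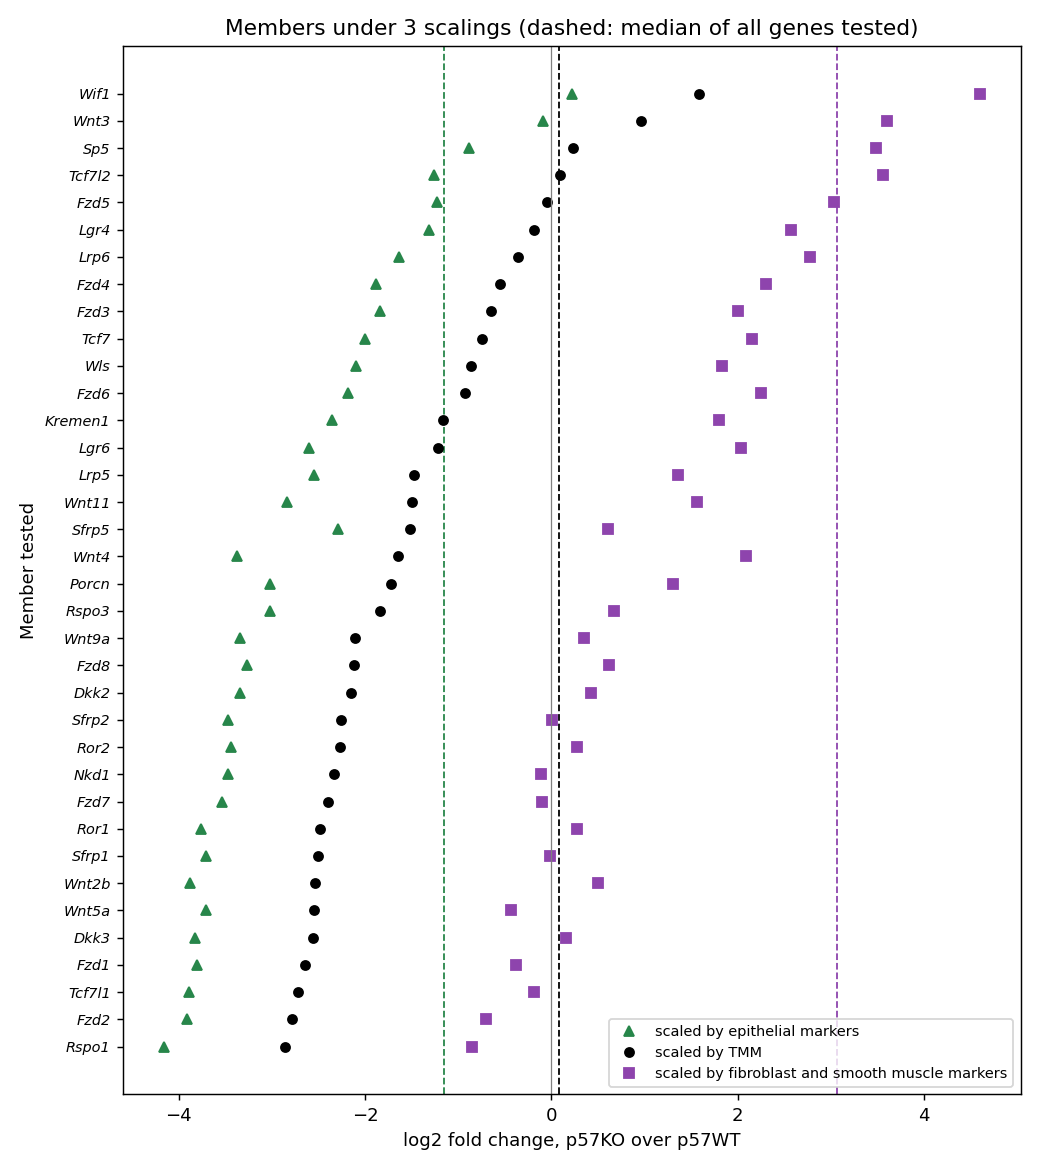
Log2 fold change (x axis) of the 36 members tested (y axis, sorted by the main value) under 3 scalings, with the median of all genes for each as a dashed line at -1.15, 0.08 and 3.07. Scaled to fibroblast and smooth muscle markers, most members turn to values above 0, and Wif1, the highest member under the main scaling, lies above the dashed line of each scaling.

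Among the 9 Wnt ligands, Wnt5a, Wnt9a and Wnt2b passed as lower. Relative to mesenchymal markers Wnt9a and Wnt2b turned to 0.36 and 0.50, below the median of all genes, 3.07, and neither passed. Wnt5a, a ligand known mainly for signalling without beta-catenin, lies on chromosome 14, 28504750 to 28527448, plus strand. Its level was 3.18, 3.56, 14.9, 10.4 and 35.3 CPM across p57KO 1 to 5, against 47.1, 88.4, 84.6, 63.8 and 109 CPM across p57WT 1 to 5. The genotypes did not overlap, and p57KO 5 stood nearest to p57WT (log2 change -2.55, SE 0.57, edgeR adjusted p = 0.00487). Without p57KO 5 the value was -3.26, and without p57KO 1 and p57KO 2 together it was -1.93. Within 607 it was -3.80 (edgeR adjusted p = 0.00374), and relative to mesenchymal markers -0.43 (edgeR adjusted p = 0.431). Wnt9a, a ligand on chromosome 11, 59306928 to 59333552, plus strand, was at 1.20, 1.23, 3.40, 1.92 and 4.96 CPM across p57KO 1 to 5, against 5.69, 16.4, 10.6, 8.11 and 13.9 CPM across p57WT 1 to 5. The groups did not overlap, though p57KO 5 and p57WT 1 came close (log2 change -2.11, SE 0.47, edgeR adjusted p = 0.00482), but not passing within 607 (-2.22, edgeR adjusted p = 0.0747). Wnt2b, a mesenchymal ligand that can sustain crypts, was scarce, with 35 counts in p57KO and 116 in p57WT. Its levels did not overlap, from 0 to 0.774 CPM against 0.909 to 5.10 CPM (log2 change -2.54, SE 0.78, edgeR adjusted p = 0.0219). The call of Wnt2b was lost without p57KO 2 or p57WT 5 and within 607 (-2.27, edgeR adjusted p = 0.377), and the ribosomal RNA class moved it (-1.73, edgeR adjusted p = 0.232).

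Wnt3, the ligand that Paneth cells of the crypt epithelium provide, took the other direction without passing (per-library values given because of its pattern, after they were seen). It was at 4.64, 4.24, 7.60, 4.83 and 6.35 CPM across p57KO 1 to 5, against 5.81, 2.25, 2.06, 1.57 and 2.49 CPM across p57WT 1 to 5. The p57WT 1 library lay within the p57KO range and the other 4 p57WT libraries lay below it (log2 change 0.97, SE 0.41, edgeR adjusted p = 0.0819). Without p57WT 1 Wnt3 passed as higher at 1.40 (edgeR adjusted p = 0.0180). Within 607, which sets p57WT 1 against p57KO 1 and 2, it was -0.39 (edgeR adjusted p = 0.749), and scaled to epithelial markers it was -0.08 (edgeR adjusted p = 0.881). The 4 Paneth markers listed, Lyz1, Defa24, Mmp7 and Ang4, all passed as higher and summed to 627 to 1114 CPM in p57KO and 50.2 to 195 CPM in p57WT. Their sum was highest among p57WT libraries in p57WT 1, as was the epithelial sum. These are RNA levels of 4 genes, and whether Paneth cells were present at E18.5 was not tested. Nor was the part of any such cells in the Wnt3 level. Neighbouring Wnt9b, on the same chromosome and the other strand, had 35 and 60 counts and was not tested. Wnt4 and Wnt11 did not pass, at -1.65 (edgeR adjusted p = 0.312) and -1.49 (edgeR adjusted p = 0.107), and Wnt4 ranged in p57WT from 0.119 to 20.7 CPM. Without p57KO 2 Wnt11 passed at -2.14 (edgeR adjusted p = 0.0401), and Wnt4 turned to 0.57 without p57WT 5.

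Shares within a family do not depend on the scaling of libraries. Per kb of exon, Wnt5a made up 9.997% to 46.2% in p57KO and 46.6% to 69.3% in p57WT of the summed Wnt ligand level, so the ranges came close without overlapping. Wnt3 made up 21.2% to 45.1% in p57KO and 2.70% to 15.7% in p57WT, again without overlap. Wnt9a, at 8.11% to 18.1% in p57KO and 13.9% to 26.4% in p57WT, overlapped. The ratio of Wnt5a to Wnt3 was 0.269, 0.330, 0.772, 0.849 and 2.18 across p57KO 1 to 5, against 3.19, 15.4, 16.2, 15.99 and 17.3 across p57WT 1 to 5. The p57WT 1 library stood apart from the other 4 p57WT libraries. The summed ligand level was 3.35 to 9.76 CPM per kb in p57KO and 12.02 to 29.99 in p57WT. These shares were looked at after the levels were known and carry no test.

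**Figure D3:**
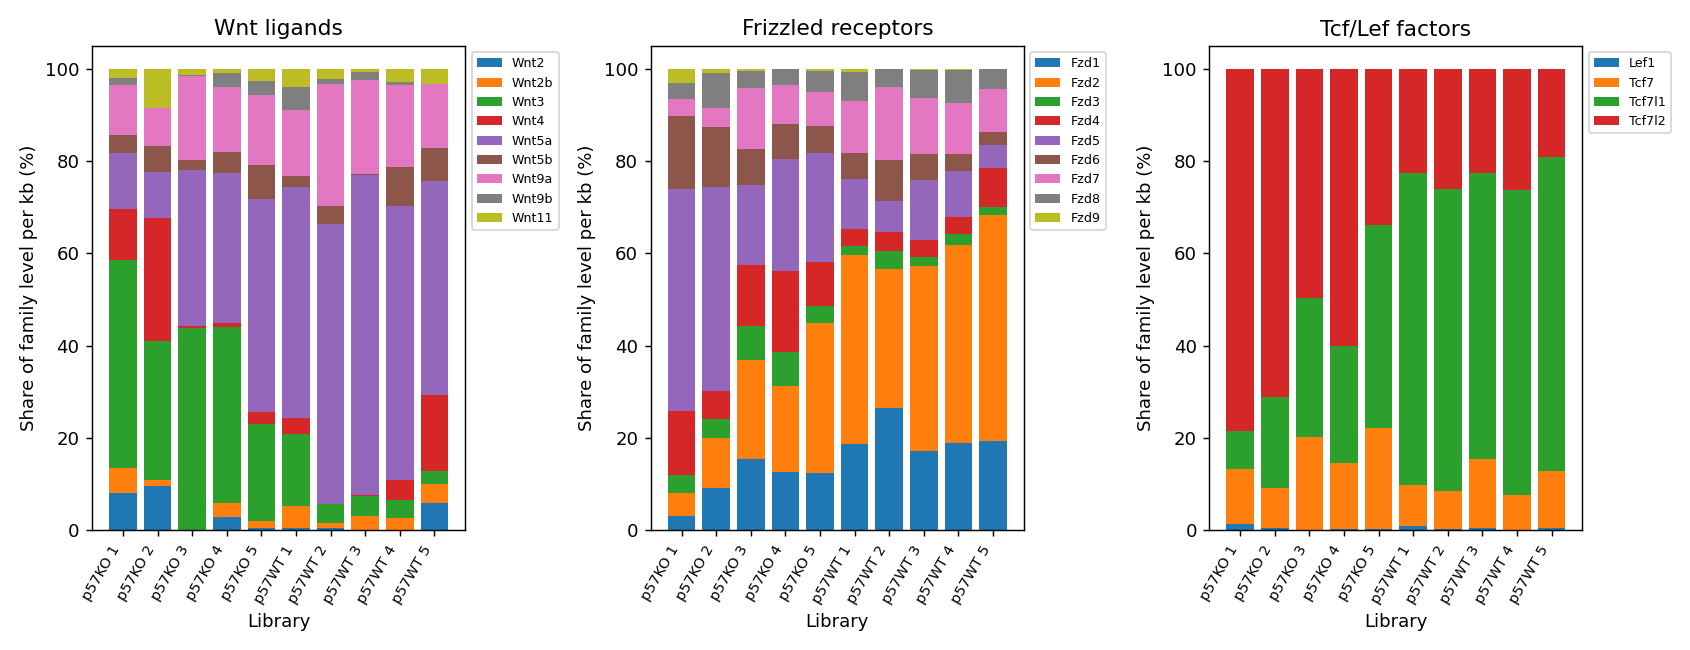
Share of each member (colours) in the summed level per kb of exon of its family (y axis, %) for the Wnt ligands, Frizzled receptors and Tcf/Lef factors in each library (x axis). Wnt3, Fzd5 and Tcf7l2 take larger shares in every p57KO library than in any p57WT library, and Wnt5a and Tcf7l1 smaller ones.

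The export genes Porcn and Wls both passed as lower. Relative to mesenchymal markers they turned to 1.30 and 1.83, below the median of all genes there, 3.07. Porcn, the acyltransferase gene on chromosome X, 8193848 to 8206525, minus strand, was at 3.78, 7.84, 5.29, 5.45 and 3.57 CPM across p57KO 1 to 5, against 7.85, 25.5, 21.3, 17.1 and 14.1 CPM across p57WT 1 to 5 (log2 change -1.72, SE 0.36, edgeR adjusted p = 0.00326). The p57KO 2 and p57WT 1 libraries nearly met, and within 607 the value was -0.42 (edgeR adjusted p = 0.706). Wls, the ligand carrier on chromosome 3, 159839672 to 159938664, plus strand, was at 53.7, 46.04, 111, 103 and 82.5 CPM across p57KO 1 to 5, against 95.7, 210.2, 121, 146 and 151 CPM across p57WT 1 to 5. Here p57KO 3 and p57KO 4 lay above p57WT 1 (log2 change -0.87, SE 0.30, edgeR adjusted p = 0.0355). The call of Wls was lost when any 1 of p57KO 1, 2 and 5 or p57WT 2 to 5 was left out, with values from -1.01 to -0.68 over the 10 libraries left out in turn. It was also lost without p57KO 1 and p57KO 2 together (-0.48, edgeR adjusted p = 0.149) and within 607 (edgeR adjusted p = 0.197).

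Of 9 Frizzled receptors, Fzd1, Fzd2, Fzd7, Fzd8 and Fzd6 passed as lower, Fzd3, Fzd4 and Fzd5 did not pass, and Fzd9 was too low to test. Relative to mesenchymal markers Fzd8 and Fzd6 turned to 0.62 and 2.25, below the median of all genes there, 3.07. Fzd6 passed there as higher, as did 85.7% of all genes. Fzd2, on chromosome 11, 102604396 to 102608058, plus strand, had the highest Frizzled level per kb in p57WT. It was at 4.13, 6.18, 17.5, 12.9 and 53.2 CPM across p57KO 1 to 5, against 105, 77.9, 129.8, 135 and 196 CPM across p57WT 1 to 5. The p57KO 5 library was high among p57KO libraries and still below p57WT 2, the lowest of its group (log2 change -2.78, SE 0.59, edgeR adjusted p = 0.00362). Without p57KO 5 it was -3.63, within 607 -4.33 (edgeR adjusted p = 0.00516), without p57KO 1 and p57KO 2 together -2.18, and with the ribosomal RNA class -2.17. Fzd1, a close relative on chromosome 5, 4753839 to 4758035, minus strand, was at 2.75, 5.80, 14.6, 10.1 and 23.2 CPM across p57KO 1 to 5, against 54.4, 78.6, 63.7, 67.4 and 88.4 CPM across p57WT 1 to 5. No overlap was seen (log2 change -2.64, SE 0.45, edgeR adjusted p = 0.00123), and within 607 it was -3.65 (edgeR adjusted p = 0.00233). Fzd7, on chromosome 1, 59482424 to 59486955, plus strand, was at 3.61, 2.84, 13.3, 7.44 and 15.1 CPM across p57KO 1 to 5, against 35.3, 50.03, 48.4, 42.8 and 46.4 CPM across p57WT 1 to 5. Its p57KO levels stayed below 16 CPM and its p57WT levels above 35 CPM (log2 change -2.40, SE 0.42, edgeR adjusted p = 0.00139), and within 607 it was -3.46 (edgeR adjusted p = 0.00132). The level of Fzd8, on chromosome 18, 9212163 to 9218136, plus strand, was 4.64, 6.82, 5.04, 3.72 and 12.3 CPM across p57KO 1 to 5, against 26.7, 16.8, 32.8, 36.4 and 27.9 CPM across p57WT 1 to 5, with p57KO 5 and p57WT 2 nearest to each other (log2 change -2.12, SE 0.36, edgeR adjusted p = 0.00110). The call of Fzd8 was lost within 607 (-2.21, edgeR adjusted p = 0.0694).

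Fzd5, the Frizzled known for its role in Paneth cell maturation, did not pass. It was at 73.8, 46.7, 26.9, 31.9 and 72.9 CPM across p57KO 1 to 5, against 51.6, 32.9, 79.6, 58.5 and 36.9 CPM across p57WT 1 to 5. The groups interleaved (log2 change -0.04, SE 0.34, edgeR adjusted p = 0.934), with 95% limits of -0.76 to 0.68. Its share of the summed Frizzled level per kb was 17.3% to 48.2% in p57KO and 4.88% to 13.03% in p57WT, without overlap, and that of Fzd2 was 5.09% to 32.5% in p57KO and 30.1% to 49.05% in p57WT. The ratio of Fzd2 to Fzd5 was 0.106 to 1.38 in p57KO and 3.08 to 10.1 in p57WT. Fzd6 was at 16.9, 9.74, 8.47, 6.94 and 12.6 CPM across p57KO 1 to 5, against 19.1, 30.7, 23.6, 15.2 and 15.2 CPM across p57WT 1 to 5, and p57KO 1 overlapped p57WT 4 and 5 (log2 change -0.93, SE 0.31, edgeR adjusted p = 0.0327). Its call was lost when any 1 of p57KO 3, p57KO 4 or p57WT 1 to 3 was left out (values -1.14 to -0.74), within 607 (-0.52, edgeR adjusted p = 0.629) and with the ribosomal RNA class (edgeR adjusted p = 0.0583). Fzd3, a receptor of axon guidance, was at 11.2, 7.92, 21.3, 17.6 and 21.4 CPM across p57KO 1 to 5, against 16.96, 36.4, 21.9, 25.6 and 23.2 CPM across p57WT 1 to 5 (log2 change -0.65, SE 0.32, edgeR adjusted p = 0.124, 95% limits -1.33 to 0.04). Fzd4, the receptor of the ligand norrin, was at 20.5, 6.31, 20.1, 22.4 and 28.6 CPM across p57KO 1 to 5, against 17.98, 19.01, 22.1, 21.2 and 62.95 CPM across p57WT 1 to 5 (log2 change -0.55, SE 0.43, edgeR adjusted p = 0.326, 95% limits -1.47 to 0.37). Both overlapped, and p57WT 5 was far above the rest for Fzd4.

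Ror1 and Ror2, receptor tyrosine kinases that bind Wnt5a, passed as lower, while Lrp5 and Lrp6, the partners for beta-catenin signalling, did not pass. Relative to mesenchymal markers Ror1 and Ror2 turned to 0.27 and 0.28, below the median of all genes, 3.07, and did not pass. Ror2, on chromosome 13, 53109312 to 53286124, minus strand, was at 12.2, 10.8, 23.7, 14.5 and 42.8 CPM across p57KO 1 to 5, against 67.8, 164, 106, 76.01 and 85.5 CPM across p57WT 1 to 5. The groups did not overlap, with p57KO 5 the highest of the p57KO libraries and p57WT 2 the highest of all (log2 change -2.27, SE 0.40, edgeR adjusted p = 0.00140). Ror1, on chromosome 4, 100095791 to 100444765, plus strand, was at 4.13, 3.13, 5.25, 3.53 and 8.70 CPM across p57KO 1 to 5, against 20.7, 19.5, 25.7, 20.5 and 51.5 CPM across p57WT 1 to 5. Again p57KO 5 was the highest p57KO library, and p57WT 5 stood above the others (log2 change -2.48, SE 0.38, edgeR adjusted p = 0.000711). Lrp6 was at 102, 53.9, 61.4, 52.5 and 74.7 CPM across p57KO 1 to 5, against 76.4, 76.5, 87.5, 94.2 and 106 CPM across p57WT 1 to 5, and p57KO 1 reached the level of the highest p57WT libraries (log2 change -0.35, SE 0.23, edgeR adjusted p = 0.238, 95% limits -0.85 to 0.14). Without p57KO 1 it passed at -0.53 (edgeR adjusted p = 0.0458). Lrp5 was at 8.51, 1.74, 2.59, 1.53 and 14.2 CPM across p57KO 1 to 5, against 20.3, 4.86, 16.6, 23.5 and 13.3 CPM across p57WT 1 to 5, with p57WT 2 and p57WT 5 inside the p57KO range (log2 change -1.47, SE 0.63, edgeR adjusted p = 0.0806). It passed without p57KO 5 (-2.14, edgeR adjusted p = 0.0142) and without p57WT 2 (-1.71, edgeR adjusted p = 0.0491). The lowest Lrp5 levels, p57KO 2 to 4 and p57WT 2, fell in libraries with a low share of ribosomal RNA, and with that class as a term Lrp5 was -0.42 (edgeR adjusted p = 0.641). Per kb of exon the ratio of Ror2 to Lrp6 was 0.384 to 1.85 in p57KO and 2.59 to 6.93 in p57WT.

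The R-spondins Rspo1 and Rspo3 passed as lower, while their receptor gene Lgr4 did not pass. Relative to mesenchymal markers Rspo3 turned to 0.68 and Rspo1 was at -0.86, neither passing, where the median of all genes was 3.07. Rspo3, on chromosome 10, 29452416 to 29535867, minus strand, is known as a mesenchymal signal that supports crypt stem cells. It was at 4.30, 8.98, 18.1, 12.7 and 12.9 CPM across p57KO 1 to 5, against 31.9, 44.6, 36.5, 46.4 and 45.1 CPM across p57WT 1 to 5. All p57KO libraries were below 19 CPM and all p57WT libraries above 31 CPM (log2 change -1.84, SE 0.33, edgeR adjusted p = 0.00148). Rspo1, on chromosome 4, 124986430 to 125009099, plus strand, was at 0, 0.466, 4.94, 1.92 and 3.22 CPM across p57KO 1 to 5, against 5.01, 13.2, 14.9, 8.37 and 35.9 CPM across p57WT 1 to 5. It had 0 counts in p57KO 1, where 3 counts correspond to 0.258 CPM, and p57KO 3 and p57WT 1 nearly met (log2 change -2.86, SE 0.84, edgeR adjusted p = 0.0182). Without p57WT 5 the call of Rspo1 was lost (-2.28, edgeR adjusted p = 0.0585), as it was with the ribosomal RNA class (edgeR adjusted p = 0.0897). Without p57KO 3 it was -3.45, without p57KO 1 and p57KO 2 together -2.14, within 607 -4.15 (edgeR adjusted p = 0.0428) and under limma voom -3.51. Lgr4 was at 79.04, 49.6, 73.3, 86.1 and 113 CPM across p57KO 1 to 5, against 97.5, 65.6, 124, 100.1 and 67.8 CPM across p57WT 1 to 5. The groups interleaved (log2 change -0.18, SE 0.26, edgeR adjusted p = 0.603, 95% limits -0.74 to 0.38). Lgr6 was near the floor, at most 2.49 CPM, and did not pass. The ratio of Rspo3 to Lgr4 per kb was 0.104 to 0.471 in p57KO and 0.560 to 1.29 in p57WT.

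**Figure D4:**
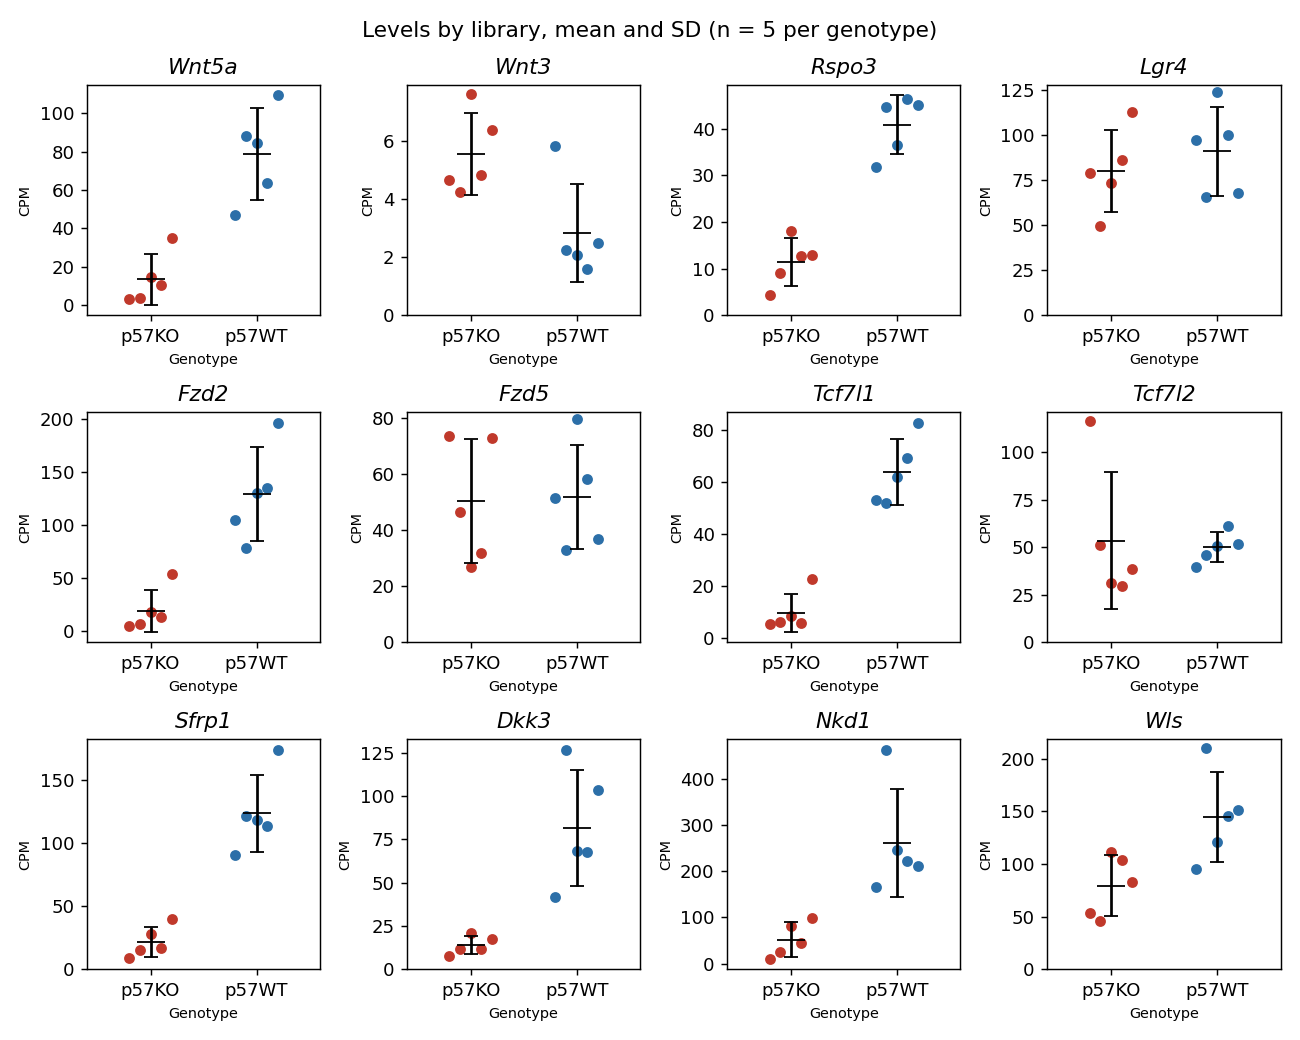
CPM (y axis, linear) of 12 members in each p57KO (red) and p57WT (blue) library, with mean and SD as black bars (n = 5 per genotype). The genotypes do not overlap for Wnt5a, Rspo3, Fzd2, Tcf7l1, Sfrp1, Dkk3 and Nkd1 and overlap for Wnt3, Lgr4, Fzd5, Tcf7l2 and Wls.

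Among the Sfrp and Dkk family genes, Sfrp1, Sfrp2, Dkk2 and Dkk3 passed as lower, and relative to mesenchymal markers they were at -0.01, 0.01, 0.43 and 0.16, none passing. Sfrp1, which binds Wnt ligands through a Frizzled-like domain, lies on chromosome 8, 23411502 to 23449632, plus strand. Its level was 8.77, 15.7, 27.98, 16.6 and 39.6 CPM across p57KO 1 to 5, against 90.7, 121, 118, 113 and 174 CPM across p57WT 1 to 5. The highest p57KO library, p57KO 5, stayed well below the lowest p57WT library, p57WT 1 (log2 change -2.51, SE 0.37, edgeR adjusted p = 0.000576). Sfrp2, on chromosome 3, 83766321 to 83774316, plus strand, was at 0.516, 1.31, 4.66, 2.76 and 4.70 CPM across p57KO 1 to 5, against 7.51, 17.7, 8.95, 12.95 and 19.7 CPM across p57WT 1 to 5. Both p57KO 1 and p57KO 2 stayed below 2 CPM and no p57KO library reached p57WT 1 (log2 change -2.26, SE 0.54, edgeR adjusted p = 0.00664), and within 607 the value was -2.98 (edgeR adjusted p = 0.0227). Dkk3, a divergent Dkk family gene on chromosome 7, 112116017 to 112159057, minus strand, was at 7.48, 11.8, 20.8, 11.8 and 17.3 CPM across p57KO 1 to 5, against 41.5, 127, 68.01, 67.9 and 104 CPM across p57WT 1 to 5. All p57KO libraries were below 21 CPM and all p57WT libraries above 41 CPM (log2 change -2.56, SE 0.35, edgeR adjusted p = 0.000424). Dkk2, an Lrp-binding inhibitor on chromosome 3, 132085292 to 132180304, plus strand, was at 3.70, 6.14, 7.39, 6.14 and 13.7 CPM across p57KO 1 to 5, against 25.4, 26.4, 33.4, 37.4 and 42.2 CPM across p57WT 1 to 5. It too showed no overlap (log2 change -2.16, SE 0.34, edgeR adjusted p = 0.000761). Kremen1, the Dkk receptor, passed as lower with a smaller shift. Relative to mesenchymal markers it passed as higher at 1.80, below the median of all genes, 3.07, where 85.7% of them passed as higher. It was at 11.1, 8.43, 7.91, 6.94 and 14.9 CPM across p57KO 1 to 5, against 19.6, 30.4, 21.3, 22.8 and 15.5 CPM across p57WT 1 to 5, with p57KO 5 and p57WT 5 almost level (log2 change -1.16, SE 0.29, edgeR adjusted p = 0.00805), and within 607 its call was lost (-1.01, edgeR adjusted p = 0.308). Sfrp5, a further ligand-binding inhibitor, did not pass (-1.52, edgeR adjusted p = 0.168).

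The remaining secreted or surface inhibitors were scarce and none passed. Wif1, a ligand-binding inhibitor, had 254 counts in p57KO and 41 in p57WT and ranged from 0.946 to 3.98 CPM against 0.341 to 1.90 CPM. It did not pass (log2 change 1.59, SE 0.60, edgeR adjusted p = 0.0510). Without p57WT 5 it passed at 2.24 (edgeR adjusted p = 0.0155), and it also passed without p57KO 1, without p57KO 5 and, at 1.64, without ribosomal RNA features. Kremen2 had 95 and 6 counts, most of them in p57KO 1 and p57KO 2 at 2.06 and 2.41 CPM, and did not reach the filter. In the authors' deposited table, Wnt3, Wif1 and Kremen2 were the 3 members called higher (log2 fold change 1.01, 1.65 and 2.92, adjusted p = 0.0410, 0.0317 and 0.0391) and 22 were called lower. The authors' calls over all genes were not counted here, so no share stands beside these counts.

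Among the nuclear factors, Tcf7l1 passed as lower and Tcf7l2 did not pass. Tcf7l1, known mainly as a repressor of Wnt targets, lies on chromosome 6, 72626378 to 72789254, minus strand. It was at 5.50, 6.31, 8.51, 5.64 and 22.5 CPM across p57KO 1 to 5, against 52.9, 52.01, 62.1, 69.1 and 82.9 CPM across p57WT 1 to 5. The p57KO 5 library was well above the other p57KO libraries and below every p57WT library (log2 change -2.72, SE 0.40, edgeR adjusted p = 0.000576, and -0.19 relative to mesenchymal markers). Tcf7l2, the main Tcf factor of intestinal epithelium, was at 116, 51.1, 31.3, 29.6 and 38.7 CPM across p57KO 1 to 5, against 39.6, 46.1, 50.7, 61.1 and 51.8 CPM across p57WT 1 to 5. The p57KO 1 library stood far above all others (log2 change 0.10, SE 0.35, edgeR adjusted p = 0.851, 95% limits -0.66 to 0.85), and without it the value was -0.40 (edgeR adjusted p = 0.173). Scaled to epithelial markers Tcf7l2 was -1.25 and passed as lower, near the -1.15 of all genes. Per kb the ratio of Tcf7l1 to Tcf7l2 was 0.106, 0.276, 0.608, 0.425 and 1.30 across p57KO 1 to 5, against 2.99, 2.52, 2.74, 2.53 and 3.58 across p57WT 1 to 5. Tcf7l1 was thus the more abundant of the pair in all p57WT libraries and in p57KO 5, and Tcf7l2 in p57KO 1 to 4. Tcf7 was at 5.33, 1.91, 3.78, 2.11 and 7.49 CPM across p57KO 1 to 5, against 4.67, 4.39, 10.04, 5.23 and 10.1 CPM across p57WT 1 to 5 and did not pass (log2 change -0.75, SE 0.46, edgeR adjusted p = 0.212). Lef1 had 34 counts in p57KO and 43 in p57WT and was not tested.

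Nkd1, which is induced by Wnt signalling and restrains Dishevelled, had the highest level per kb of all members in p57WT. It lies on chromosome 8, 88521354 to 88594884, plus strand and was at 9.89, 25.2, 80.8, 43.6 and 99.6 CPM across p57KO 1 to 5, against 165, 463, 245, 221 and 211 CPM across p57WT 1 to 5. The groups did not overlap, and p57WT 2 stood far above the rest (log2 change -2.33, SE 0.53, edgeR adjusted p = 0.00497). Within 607 it was -3.23 (edgeR adjusted p = 0.0109). Relative to mesenchymal markers Nkd1 was -0.11 (edgeR adjusted p = 0.844). Sp5, a target gene of beta-catenin signalling and the one with a pair of promoter matches, had 53 counts in p57KO and 27 in p57WT and did not pass (log2 change 0.23, SE 1.08, edgeR adjusted p = 0.885).

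The order of levels per kb of exon differed between genotypes. In p57WT it ran Nkd1 57.3 ± 25.6, Fzd2 35.1 ± 12.04, Sfrp1 28.2 ± 6.999, Dkk3 24.3 ± 9.98 and Ror2 23.5 ± 9.13 CPM per kb (SD, n = 5). Fzd1 (16.8 ± 3.16), Wls (16.5 ± 4.86), Tcf7l1 (16.3 ± 3.25) and Lgr4 (15.5 ± 4.17) followed within each other's spread. In p57KO it ran Lgr4 13.6 ± 3.89, Nkd1 11.4 ± 8.25, Wls 9.03 ± 3.30, Fzd5 7.30 ± 3.20 and Tcf7l2 6.08 ± 4.11 CPM per kb. Each neighbour in these orders differed from the next by less than the larger of their SDs. Of the 5 members that led in p57KO, Lgr4, Fzd5 and Tcf7l2 had not passed the genotype test.

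**Figure D5:**
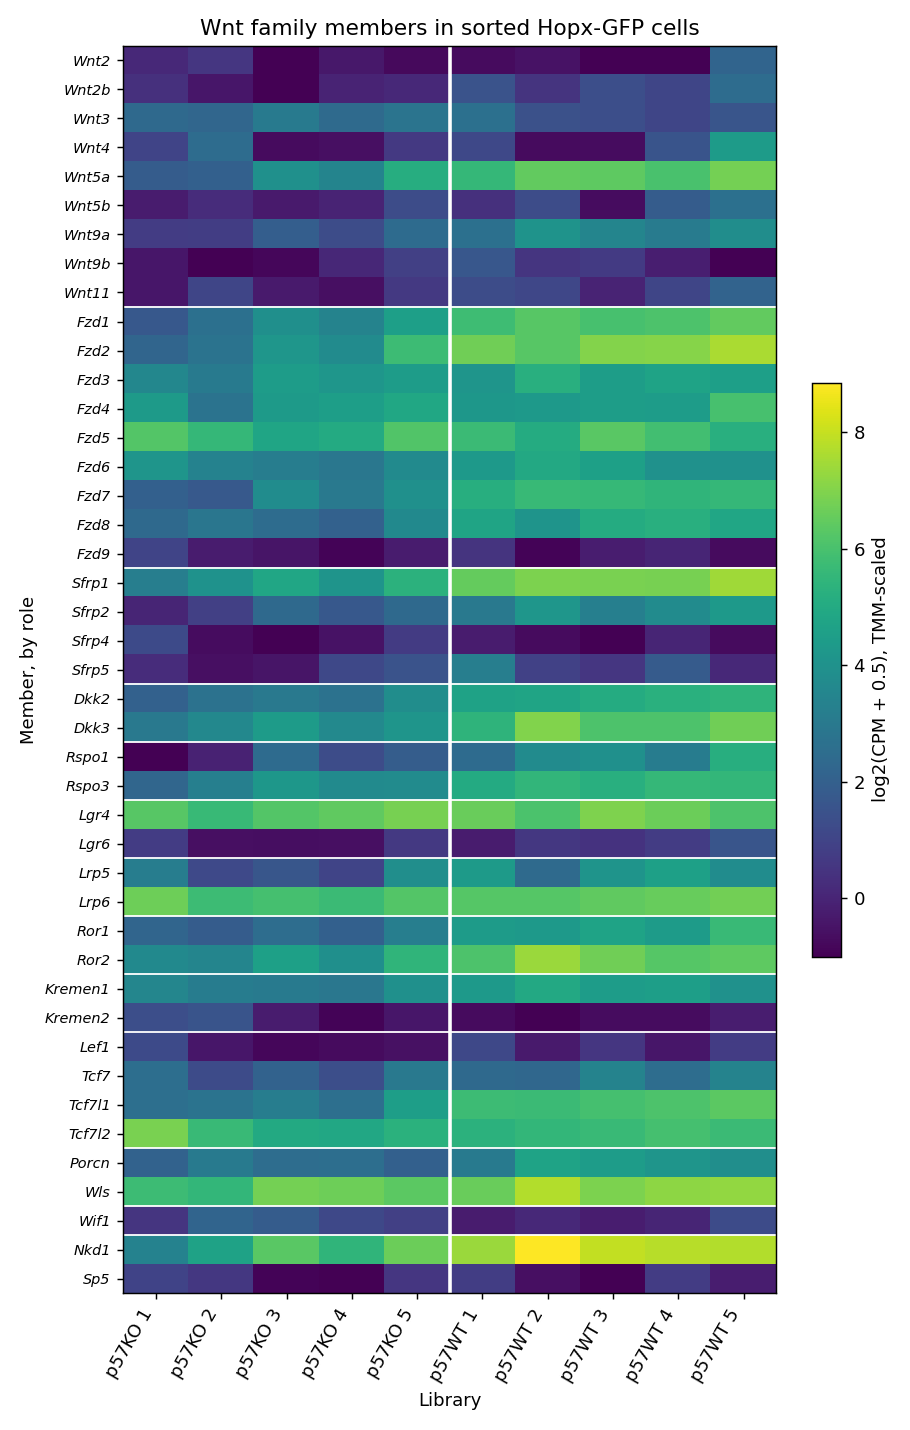
Level of the 43 members (y axis, by role) in each library (x axis) as log2(CPM + 0.5), p57KO to the left of the white line. Fzd1, Fzd2, Fzd7, Sfrp1, Dkk3, Ror2, Tcf7l1 and Nkd1 are darker in p57KO, while Fzd5, Lgr4 and Lrp6 keep a similar colour across. Scaled to fibroblast and smooth muscle markers, Dkk3 and Ror2 lie above 0 (0.16 and 0.28) and below the median of all genes, 3.07.

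The libraries ranked alike over many of the lower members. Of the 21, 12 were lowest in p57KO 1 among p57KO libraries and 14 were highest in p57KO 5. Among p57WT libraries 14 were lowest in p57WT 1, and 10 and 9 were highest in p57WT 5 and p57WT 2. The 9 fibroblast markers summed to 166, 319, 1328, 822 and 1438 CPM across p57KO 1 to 5, against 2748, 6265, 3515, 3778 and 9346 CPM across p57WT 1 to 5, with the same libraries lowest and highest. The smooth muscle markers summed to 4773, 7319.7, 32374, 25879 and 23156 CPM and 49369, 98654, 61938, 64298 and 60371 CPM, also lowest in p57KO 1 and p57WT 1, but highest in p57KO 3 and p57WT 2. The medians of these lists were -2.63 and -2.38, beside -1.69 over the 36 members tested and -2.33 over the 21 chosen for passing as lower. None of the 20 markers was at 0 in any library. The p57KO 5 library was also the only p57KO library with a high share of ribosomal RNA features, 9.47% against at most 0.435% in the others. The same ranks were not counted over all genes. The part of fibroblasts and smooth muscle, or of the ribosomal RNA share, in the members' levels and their order was not tested.

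The rest of the pathway was read from 70 further genes, of which 64 could be tested. Of these, 0 passed as higher and 29 as lower, with a median of -0.75, where 19.3% of all genes tested were higher, 17.2% were lower and the median was 0.08. Here too the direction turned relative to mesenchymal markers, where 42 passed as higher, 0 as lower and the median was 2.25. Over all genes these were 85.7%, 0.317% and 3.07. Within 607, 8 passed as lower, against 4.94% of all genes, and with the ribosomal RNA class 19, against 10.5%. The values named next are those of the main scaling, and each list's count stands against the same 17.2%. Surface modulators had 7 of 12 lower, led by Adgra2, a co-activator of Wnt7 signals (-3.25, edgeR adjusted p = 0.000897), Igfbp4, a secreted binding protein (-2.10, edgeR adjusted p = 0.000821), and Trabd2b, a Wnt-cleaving protease (-2.22, edgeR adjusted p = 0.00384). Planar polarity genes had 7 of 10 lower, among them Prickle2 (-2.62, edgeR adjusted p = 0.00137), Daam1, a formin (-1.48, edgeR adjusted p = 0.00175), and Prickle1 (-1.96, edgeR adjusted p = 0.00233). The list of nuclear cofactors held Bcl9, Bcl9l, Pygo1 and Pygo2 together with the Tle genes Tle1, Tle2, Tle3 and Tle4, and 5 of these 8 were lower. They included Bcl9l (-2.19, edgeR adjusted p = 0.00304), Pygo1 (-2.41, edgeR adjusted p = 0.00458) and Bcl9 (-0.95, edgeR adjusted p = 0.0244). Of 4 genes of surface receptors and their turnover, Znrf3, a ligase that removes Frizzleds (-1.53, edgeR adjusted p = 0.00860), and Ptk7, a co-receptor (-2.11, edgeR adjusted p = 0.0161), were lower. The related ligase gene Rnf43 (-0.13, edgeR adjusted p = 0.757) and the receptor gene Lgr5 (0.35, edgeR adjusted p = 0.474) did not pass. In the cytoplasmic machinery 4 of 19 passed as lower, a share near that of all genes, with a list median of -0.26. These were Dvl3 (-1.69, edgeR adjusted p = 0.00260), Nkd2 (-2.76, edgeR adjusted p = 0.00285), Csnk1e (-1.32, edgeR adjusted p = 0.00859) and Dvl1 (-0.99, edgeR adjusted p = 0.0421). Of 11 target genes, 4 were lower, led by Ccnd1 (-1.80, edgeR adjusted p = 0.000833), Ephb3 (-1.92, edgeR adjusted p = 0.00150) and Smoc2 (-1.13, edgeR adjusted p = 0.00613). Axin2, the feedback gene most often used as a readout of beta-catenin signalling and picked after its value was seen, did not pass (log2 change 0.05, SE 0.66, edgeR adjusted p = 0.958, 95% limits -1.38 to 1.48), nor did Ctnnb1, the beta-catenin gene, picked likewise (0.01, edgeR adjusted p = 0.973). Among the genes named, Ptk7, Adgra2, Nkd2, Pygo1 and Prickle2 stayed below 0 relative to mesenchymal markers, at -0.11, -1.07, -0.63, -0.30 and -0.30, and none of the 5 passed there. The other named genes that had passed as lower turned above 0, and Bcl9, Daam1, Csnk1e, Dvl1 and Smoc2 passed there as higher, at 2.17, 1.56, 1.88, 1.77 and 1.84.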

How the data were processed

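RNA sequencing of 10 libraries (5 p57KO, 5 p57WT) was deposited as 1 table. It held raw read counts per gene, deposited by the authors without normalization, the same counts divided by a size factor per library (a signal value deposited by the authors, not used in tests), and the authors' log2 fold changes with adjusted p-values, per the file headers. Tools named in the submitters' processing notes, in alphabetical order, are Cufflinks 2.2.1, DESeq2 1.22.2, FastQC, HTSeq 1.0, STAR 2.6.1d and Trim Galore, with mm10 (GRCm38) as the build. No annotation release or strand setting is given in the sources used here, so reads of antisense genes, which overlap exons of 9 members (Wnt5a, Wnt11, Fzd5, Fzd6, Sfrp2, Rspo3, Kremen2, Lef1 and Tcf7l1), cannot be told apart.

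Counts were fitted with edgeR 4.0.16 (R 4.3.3; filterByExpr, TMM, quasi-likelihood, genotype only), with DESeq2 1.42.0, limma 3.58.1 voom and other settings as alternatives, after a check on simulated data. Coordinates and exon lengths come from GENCODE M21, which held 20558 of the 20579 identifiers. SE was taken from the fold change and F statistic. At these depths 3 counts were worth 0.105 to 0.392 CPM, counting error only. No 2 libraries of a genotype agreed within sampling noise (chi-square per degree of freedom at least 10.2). Values per library were given for members with a mean of at least 5 CPM, and further ones where stated. Pathway lists were given as counts with up to 3 genes of the smallest p. Named beyond that rule were Dvl1, Rnf43, Axin2 and Ctnnb1, along with the full membership of the nuclear cofactor list. The members and lists were chosen with earlier results of these data known, and the ribosomal RNA class term was chosen after seeing the data.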

Additional observations from a re-analysis of the deposited data

Results flagged for a closer look

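In 56 groups of 5 libraries (28 members in each genotype), 6 had a library far from the others by Dixon's criterion, where chance gives about 1 in 20. Fzd2 was at 53.2 CPM and Tcf7l1 at 22.5 CPM in p57KO 5, each above the other p57KO libraries. Without p57KO 5 their log2 fold changes were -3.63 and -3.28. Tcf7l2 was at 116 CPM in p57KO 1. Fzd4 was at 62.95 CPM and Ror1 at 51.5 CPM in p57WT 5, and without that library they were -0.04 and -2.13. Nkd1 was at 463 CPM in p57WT 2, and -2.02 without it.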

How the results depend on the processing

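Over the 10 libraries left out in turn, 18 to 21 members were called lower, against 13.1% to 20.9% of all genes. In these fits 0 to 1 members were higher, where 2405 to 3653 of all genes were. Of the 21 lower members, 17 passed in all 10 fits. The number called higher was 3 with DESeq2 (Wnt3, Wif1 and Kremen2), 2 with limma voom (Wnt3 and Wif1) and 1 without ribosomal RNA features (Wif1). Over all genes 4291 of 20579, 3016 of 16710 and 3581 of 16810 were higher in these fits. A term for the label number, equal to the contrast within 607, left 14 lower. With the ribosomal RNA class 17 were lower, against 10.5% of all genes. Among all genes, 183 passed as higher and 826 as lower within 607 (18.1% of calls higher), and 1207 and 1752 with the ribosomal RNA class (40.8%), against 3226 and 2881 (52.8%) with genotype alone. The share higher was 5.33% with epithelial and 99.6% with mesenchymal scaling. Scaled to epithelial markers 33 were lower, against 56.1% of all genes. With the fibroblast and smooth muscle standard 85.7% of all genes were higher, 0.317% were lower and the median was 3.07. Scaled to fibroblast and smooth muscle markers 13 were higher and 0 lower, the median turned to 0.99, and 24 members changed sign: Wnt2b to 0.50, Wnt4 to 2.09, Wnt9a to 0.36, Wnt11 to 1.56, Fzd3 to 2.00, Fzd4 to 2.30, Fzd5 to 3.04, Fzd6 to 2.25, Fzd8 to 0.62, Sfrp2 to 0.00984, Sfrp5 to 0.61, Dkk2 to 0.43, Dkk3 to 0.16, Rspo3 to 0.68, Lgr4 to 2.57, Lgr6 to 2.04, Lrp5 to 1.36, Lrp6 to 2.78, Ror1 to 0.27, Ror2 to 0.28, Kremen1 to 1.80, Tcf7 to 2.16, Porcn to 1.30 and Wls to 1.83. Of those 20 markers, 19 were themselves lower in p57KO. Of 755 values of single members over all alternatives, 621 kept direction and call, 43 lost a call, 31 gained one and 60 changed sign, 40 of them with a call in neither fit. The sign changes under the other settings were in members that had not passed, and of these values only that of Tcf7l2 under epithelial scaling passed. With limma voom, Tcf7l2 was -0.11 and Sp5 was -0.65. With the replicate block, Tcf7l2 was -0.12. Within 607, Wnt3 was -0.39, Wnt4 was 0.97, Fzd5 was 0.22, Lgr6 was 0.90, Lrp6 was 0.0324 and Sp5 was -0.0267. Without ribosomal RNA features, Fzd5 was 0.00322. Scaled to epithelial markers, Wnt3 was -0.0846, Tcf7l2 was -1.25 and Sp5 was -0.89. Without p57KO 1 and p57KO 2 together, Lgr4 was 0.0424, Tcf7l2 was -0.53 and Sp5 was -1.01. With the ribosomal RNA class, Wnt4 was 0.32, Fzd5 was 0.40, Lgr4 was 0.17 and Tcf7l2 was -0.0420. Over the 10 libraries left out in turn, Wnt4 ranged from -2.93 to 0.57, Fzd5 ranged from -0.21 to 0.16, Tcf7l2 ranged from -0.40 to 0.26 and Sp5 ranged from -0.23 to 0.74. The fit with the replicate number as a block called 22 lower and 0 higher, adding Lrp5 (-1.83), and lost none. Of 16710 genes in that fit, 17.6% were lower and 2861 were higher. Same-numbered libraries correlated from -0.15 to 0.23 in their deviations and only the pair numbered 1 matched best, so the numbers were not taken to pair the libraries. Low counts kept 7 members out of the edgeR test, of which Kremen2 was called by DESeq2.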

Other observations

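Several scarce ligands had their highest level in p57WT 5. Wnt4, a ligand of kidney and gonad development, was at 20.7 CPM there and at most 5.08 CPM elsewhere. Wnt2 was at 4.03 CPM against at most 0.974, Wnt5b at 5.69 against 3.14, Wnt11 at 3.91 against 1.94 and Wnt2b at 5.10 against 2.39. Wnt9b, also scarce, went the other way, at 0 CPM there and highest in p57WT 1 at 2.73 CPM. The 4 mesothelial markers measured (2 were tested, and 0 passed) also summed highest in p57WT 5, at 45.3 CPM against at most 22.4. So did the fibroblast markers and the enteric neuron and glia markers, the latter at 89.9 CPM against at most 67.6. The part of these cells in the ligand levels was not tested. Of the Frizzled-related inhibitors, Sfrp4 (42 and 11 counts) and Frzb (97 and 9 counts) were too low to test.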
